A study of Homo sapiens with 4 samples.

Results

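Extracellular matrix and matrix protease genes were followed in cells in which an enhancer of CEBPB had been removed. The set holds 51 genes out of 57768 gene entries per library, chosen by name for their roles as collagens, laminins, matrix glycoproteins, proteoglycans, matrix metalloproteinases, tissue inhibitors and members of the plasminogen activator system. RNA was sequenced from 2 WT libraries and 2 C/EBPβ enh-/- libraries, made with CRISPR/Cas9 so that neither allele keeps the C/EBPβ enhancer. All 4 libraries carry the label HepG2, a human liver cancer cell line, and were grown in the same serum-containing medium with no further agent named. The labels name a blank CRISPR/Cas9 vector without saying whether the WT cells received it, and they give neither the number of clones nor separate cultures, so the p-values here measure the spread between these libraries, which may be technical. The series asks which transcripts differ once the enhancer of CEBPB, a leucine zipper transcription factor, is gone.

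The extracellular matrix is the protein and sugar scaffold outside cells. Collagens form fibrils or networks from triple helices, and laminins are cross-shaped trimers of an α, a β and a γ chain that assemble with collagen IV and perlecan into the basement membrane under epithelial sheets. Metalloproteinases and the plasmin system cut this scaffold, and tissue inhibitors of metalloproteinases (TIMPs) restrain the cutting. The liver holds little basement membrane along its sinusoids and gains fibrillar and basement membrane collagens in fibrosis.

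Levels are given in FPKM (fragments per kilobase of transcript, scaled to the mapped fragments of the library), a unit that corrects for transcript length. CEBPB stood at 30.6 and 19.2 FPKM in the WT libraries and at 12.4 and 11.8 FPKM in the C/EBPβ enh-/- libraries. The genotypes did not overlap, and the log2 fold change of -0.94 did not pass the threshold (limma, adjusted p = 0.125). The liver identity in the label was not seen in the transcripts: 20 of 20 hepatocyte markers lay below 1 FPKM in every library, with a highest value of 0.428, summed levels from 0.645 to 1.01 FPKM per library, and FOXA2 and APOC3 at 0 in all 4. The cells are therefore called by their label here and are not described as hepatocyte-like. VIM, an intermediate filament gene of mesenchymal and many cultured cells, lay between 138 and 308 FPKM, and the 7 mesenchymal markers summed to 240.1 and 320.6 FPKM in WT and 194.4 and 144.8 FPKM in C/EBPβ enh-/-, with 3 of them below 1 FPKM throughout. The 6 epithelial markers summed to 648.3 and 797.5 FPKM in WT and to 238.0 and 238.1 FPKM in C/EBPβ enh-/-, nearly all of it KRT8 and KRT18. Of these markers 3 (EPCAM, CDH1 and CLDN4) were below 1 FPKM throughout, and KRT19 was at 0 in both C/EBPβ enh-/- libraries. The 4 endothelial markers found and 4 of 5 leukocyte markers lay below 1 FPKM in all libraries. A smaller number of cells of one kind and less RNA per cell cannot be told apart in such bulk RNA, and the part of the epithelial and mesenchymal levels in the matrix results was not tested.

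The DNA just before the starts of the genes that carry the results is shown first, on GRCh37, the build of the files. COL12A1 and LAMB3 are the members that passed the test of the genotype difference, and COL4A1 and COL4A2 are 2 collagen IV genes that start back to back. These genes were picked for display after their values were known. Capitals mark matches on either strand to 4 motifs, which are TTGCNNAA, the core of C/EBP sites, TGANTCA, the AP-1 site, GGAATG, the TEAD site, and GGGCGG, the Sp1 site. The windows run from 250 bases before the canonical transcript's start to the base before it, read along the strand of the gene. COL12A1 lies at chr6:75915770-75916019 on the minus strand, where an exon of a COL12A1 transcript with a retained intron reaches into the window. LAMB3 lies at chr1:209825771-209826020 on the minus strand.
COL12A1: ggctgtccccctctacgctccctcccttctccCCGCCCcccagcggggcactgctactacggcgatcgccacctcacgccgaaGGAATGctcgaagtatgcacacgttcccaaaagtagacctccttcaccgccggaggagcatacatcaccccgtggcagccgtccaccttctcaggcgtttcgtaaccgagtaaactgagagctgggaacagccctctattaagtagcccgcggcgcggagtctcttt
LAMB3: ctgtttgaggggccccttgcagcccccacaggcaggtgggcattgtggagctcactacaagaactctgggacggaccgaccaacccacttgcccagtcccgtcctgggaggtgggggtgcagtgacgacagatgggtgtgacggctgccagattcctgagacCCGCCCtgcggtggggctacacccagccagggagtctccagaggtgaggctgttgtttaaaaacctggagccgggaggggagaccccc

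The COL12A1 window held a GGAATG match 167 bases before the start and a GGGCGG match on the other strand 218 bases before it. The LAMB3 window held a single GGGCGG match, 88 bases before the start. TTGCNNAA was present in 1 of 29 members that passed the filter on low values (PLAUR) and in 4 of all 51 members. It was present in 5.47% of the windows of the 10876 protein-coding genes that passed the filter and in 7.01% of all 19123 protein-coding windows of this length. The shares that follow are over the same windows. TGANTCA was found in PLAUR alone of the 29, against 2.98% of the windows of genes that passed the filter and 4.65% of all windows, and in 7 of all 51 members. GGAATG was found in 4 of the 29 (COL12A1, COL1A1, LAMA3 and THBS1), against 8.78% of the windows of genes that passed the filter and 9.76% of all windows, and in 8 of all 51 members. GGGCGG was found in 26 of the 29, which is 89.7%, against 11474 of the 19123 windows and 73.6% of those of the genes that passed the filter. It was found in 34 of all 51 members. Matches are letters in a window and no measurement of binding.

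The interval between the COL4A1 and COL4A2 starts is shown because the canonical transcripts of both genes begin at its edges and run away from each other. Another COL4A2 transcript is annotated from further upstream, within COL4A1, so that the gene spans overlap. It is chr13:110959505-110959630, is given on the plus strand with COL4A1 to its left and COL4A2 to its right, and spans 126 bases with 80.2% G and C. The last bases lie in the first exon of another annotated COL4A2 transcript, and the capitals mark its single GGGCGG match.
COL4A1-COL4A2 interval: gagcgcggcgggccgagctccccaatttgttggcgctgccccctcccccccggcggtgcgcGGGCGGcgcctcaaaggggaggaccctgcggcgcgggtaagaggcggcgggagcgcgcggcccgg

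COL4A3 and COL4A4 are arranged in the same way on chromosome 2, with 418 bases between their starts.

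Of the 51 genes, 29 had a mean of at least 1 FPKM over the 4 libraries and entered the test together with all other such genes, 12491 in total. COL12A1 and LAMB3 fell in C/EBPβ enh-/-, and no member rose. These 2 of 29 stand beside 1.21% of all tested genes called lower, 0.248% called higher and 1.46% called in either direction (limma on log2(FPKM + 1), Benjamini-Hochberg adjusted p under 0.05). In 19 of the 29, or 65.5%, neither C/EBPβ enh-/- library reached the lower WT value, which held for 37.5% of all tested genes. In 4, or 13.8%, both exceeded the higher WT value (COL3A1, COL8A1, LAMA3 and ADAMTS1), against 15.1% of all tested genes. Before adjustment, 14 members had p under 0.05 on the lower side, beside 16.9% of all tested genes, and 2 on the higher side (COL3A1 and ADAMTS1), beside 3.86%. This split depends on the scaling: over all tested genes it was 2114 lower and 482 higher as deposited, 1177 and 1245 after rescaling to the protein-coding total and 1263 and 1142 after centring, where the members had 10 lower and 3 higher in either case. The median log2 fold change, C/EBPβ enh-/- minus WT, was -0.68 over the 29 members and -0.14 over all tested genes, with a range over members from -3.05 to 0.89. After rescaling to the protein-coding total these medians were -0.46 and 0.06, after centring -0.50 and 0.03, and with no filter -0.095 and -0.0012. Of the 25 members below 0, COL1A1, LAMA1 and TIMP3 changed sign under at least 1 other scaling. Since members passed the filter on their mean level and were chosen with results of these data known, these counts are descriptions.

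**Figure D1:**
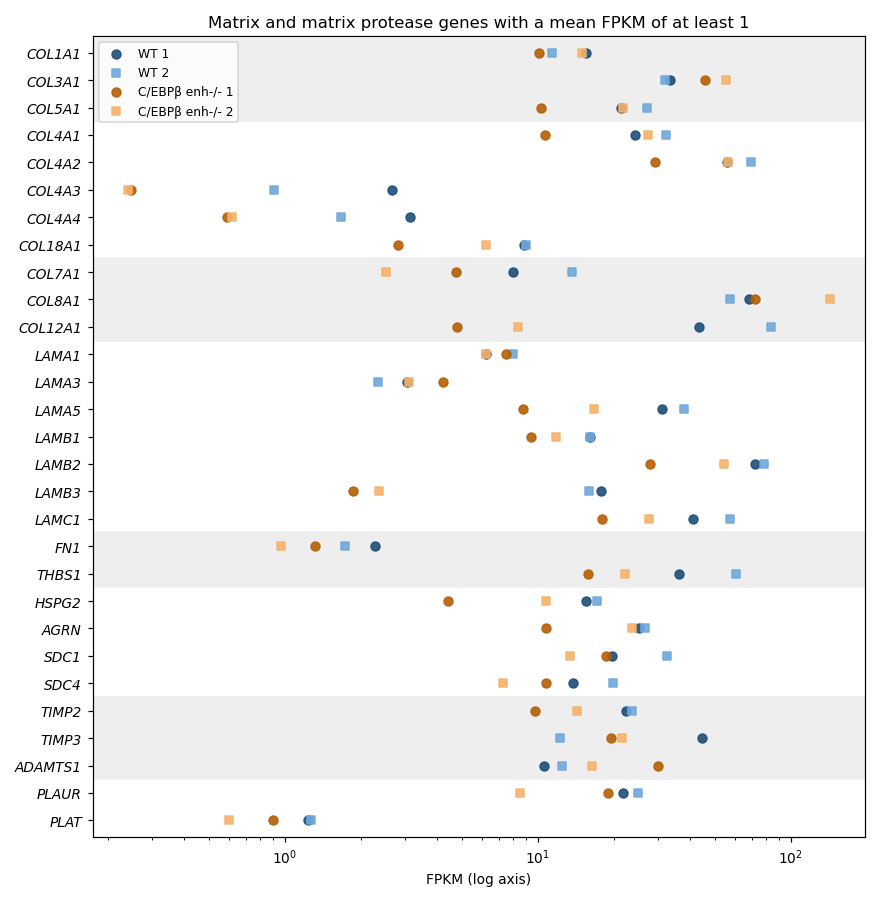
Level of the 29 matrix and matrix protease genes with a mean of at least 1 FPKM, in FPKM on a log axis, with 1 point per library (circles for libraries numbered 1, squares for libraries numbered 2, blue for WT, orange for C/EBPβ enh-/-) and shading that alternates by role. The orange points of COL12A1 and LAMB3 lie far to the left of the blue ones, and those of COL3A1 and COL8A1 lie to the right.

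The 4 libraries were not equal in depth, and the 2 C/EBPβ enh-/- libraries differed from each other in many of these genes. Low values stepped in units that give roughly 43600000 and 48900000 fragments for the WT libraries and 24100000 and 53100000 for C/EBPβ enh-/- replicates 1 and 2, an approximate figure since 44.7% to 47.7% of the low values came within 0.1 of a whole fragment. C/EBPβ enh-/- replicate 1 was thus the shallowest, and its 5 highest genes took 35.1% of its summed FPKM, against 18.8% to 27.4% in the others. It held the lowest of the 4 values for 16 of the 29 members, and WT replicate 2 held the highest for 18. These counts were not made over all tested genes, so they cannot be read as a trait of the members. Replicate 2 minus replicate 1 of C/EBPβ enh-/- had a median of 0.30 on the log2 scale over the members, above 0 in 19 of 29, and of -0.09 over all tested genes. The members were long, with a median transcript of 6446 nt against 3136 nt, and richer in G and C, at 52.3% against 47.9%. In the 9 tested members with at least 60% G and C the 2 C/EBPβ enh-/- libraries differed by a median of 0.93, and in the 166 tested genes of any function with at least 60% G and C and 5000 nt the median was 0.17. The part of depth, length and base content in the genotype difference was not tested. Without C/EBPβ enh-/- replicate 1, 19 members had the remaining value below both WT values, beside 54.5% of all tested genes, and the members' median was -0.49. Without C/EBPβ enh-/- replicate 2, the count was 23, beside 47.2%, and the median was -1.06.

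Fibrillar collagens build the tension-bearing fibrils of connective tissue, and 3 of the 5 in the set were above the filter. COL3A1, the chain of type III collagen, had 33.3 and 31.9 FPKM in WT and 45.8 and 55.7 FPKM in C/EBPβ enh-/-. Its genotypes were apart, and the log2 fold change of 0.62 (SE 0.22) did not pass (limma, adjusted p = 0.177). COL1A1, which encodes the α1 chain of type I collagen, had 15.5 and 11.4 FPKM in WT and 10.1 and 14.9 FPKM in C/EBPβ enh-/-. The libraries interleaved, and the log2 fold change of -0.10 turned positive when levels were rescaled to the protein-coding total, centred or corrected for base content and length. COL5A1, a chain of the type V collagen that sets fibril width, had 21.2 and 27.0 FPKM in WT and 10.3 and 21.8 FPKM in C/EBPβ enh-/-, where replicate 2 lay within the WT range. COL1A2, which encodes the partner chain of COL1A1 in type I collagen, was at 0 in 3 libraries with a highest value of 0.00441 FPKM, and COL5A2, the partner of COL5A1, did not exceed 0.121 FPKM. The ratio of COL1A1 to COL3A1 was 0.465 and 0.356 in WT and 0.221 and 0.268 in C/EBPβ enh-/-.

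Of the 5 basement membrane collagens 0 passed the test. Their median log2 fold change was -0.91, all 5 were below 0, and 3 of 5 had no overlap with C/EBPβ enh-/- lower, a pattern of 37.5% of all tested genes. COL4A1 and COL4A2, whose chains form the common collagen IV trimer, behaved alike from library to library. COL4A1 had 24.3 and 32.2 FPKM in WT and 10.6 and 27.2 FPKM in C/EBPβ enh-/-. COL4A2 had 56.2 and 69.9 FPKM in WT and 29.2 and 56.3 FPKM in C/EBPβ enh-/-. For both genes C/EBPβ enh-/- replicate 1 was the low library and replicate 2 lay within the WT range, and the ratio of COL4A2 to COL4A1 stayed between 2.07 and 2.74. The antisense transcripts annotated on COL4A2 cannot be separated from it if counting ignored strand, which is not given in the sources used here.

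COL4A3 and COL4A4, the chains of the collagen IV network of kidney glomeruli and lung, were expressed at a far lower level. COL4A3 had 2.64 and 0.909 FPKM in WT and 0.247 and 0.239 FPKM in C/EBPβ enh-/-. COL4A4 had 3.12 and 1.66 FPKM in WT and 0.590 and 0.617 FPKM in C/EBPβ enh-/-. In this back-to-back pair the C/EBPβ enh-/- libraries matched each other closely and lay apart from WT, with a ratio of means of 0.137 for COL4A3 and 0.252 for COL4A4. The WT libraries differed, and the ratio for COL4A3 was 0.268 without WT replicate 1 and 0.0920 without WT replicate 2, and both genes passed the filter through WT alone. Their log2 fold changes of -1.08 and -1.05 are on the FPKM + 1 scale and so are smaller in size than those of the FPKM themselves. COL18A1, whose cleaved end is endostatin, had 8.82 and 8.96 FPKM in WT and 2.81 and 6.23 FPKM in C/EBPβ enh-/-, with no overlap.

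Among the remaining collagens, COL12A1 fell and COL8A1 had its highest value in C/EBPβ enh-/-. COL12A1 encodes a fibril-associated collagen that coats type I fibrils (gene span chr6:75794042-75915983, minus strand). It stood at 43.4 and 83.4 FPKM in WT and at 4.82 and 8.33 FPKM in C/EBPβ enh-/-. That is 63.4 ± 28.3 FPKM against 6.57 ± 2.48 FPKM (SD, n = 2 each), a ratio of 0.104. The log2 fold change was -3.05 (SE 0.37; limma, adjusted p = 0.0208), and each of the 4 pairs of a C/EBPβ enh-/- with a WT library differed by between -3.86 and -2.25 on the log2 scale. With any 1 of the 4 libraries left out the log2 fold change lay between -3.52 and -2.59 and the call was lost (limma, adjusted p = 0.077 to 0.182), as it was with no filter on low values (0.257). COL8A1, a short-chain network collagen of vessel walls, had 68.4 and 57.5 FPKM in WT and 72.3 and 143.0 FPKM in C/EBPβ enh-/-. Replicate 1 of C/EBPβ enh-/- lay just above WT and replicate 2 far above, and the log2 fold change was 0.69 (SE 0.34; limma, adjusted p = 0.298). COL8A1 made up 9.96% and 7.28% of the summed FPKM of the 51 genes in WT and 17.5% and 23.8% in C/EBPβ enh-/-, where it was the highest member. COL12A1 went from 6.32% and 10.6% of that sum to 1.16% and 1.39%.

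COL7A1, the anchoring fibril collagen that ties the basement membrane to the stroma, had 8.02 and 13.7 FPKM in WT and 4.74 and 2.52 FPKM in C/EBPβ enh-/-. The genotypes did not overlap, replicate 2 of C/EBPβ enh-/- was the lower one here, and the log2 fold change of -1.36 did not pass (limma, adjusted p = 0.101). The 3 collagen VI genes of the set, COL13A1 and the hemidesmosome collagen COL17A1 were below the filter, with highest values of 0.475 FPKM for COL6A1 and 0.710 FPKM for COL17A1.

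Laminin transcripts were summed at 188.0 and 217.1 FPKM in WT and at 78.4 and 122.8 FPKM in C/EBPβ enh-/-. Of 9 laminin genes 7 were tested, 1 fell (beside 1.21% of all tested genes), 5 had no overlap with C/EBPβ enh-/- lower (beside 37.5%) and 1 had none with C/EBPβ enh-/- higher (beside 15.1%). LAMB3 is the β chain of laminin-332, the anchoring laminin of skin and other epithelia (gene span chr1:209788215-209825770, minus strand). It had 17.8 and 15.9 FPKM in WT and 1.86 and 2.35 FPKM in C/EBPβ enh-/-. That is 16.8 ± 1.33 FPKM against 2.11 ± 0.350 FPKM (SD, n = 2 each), with close replicates in both genotypes and a ratio of 0.125. The log2 fold change was -2.52 (SE 0.22; limma, adjusted p = 0.00554). With any 1 library left out it lay between -2.64 and -2.41, and the call was lost (limma, adjusted p = 0.0596 to 0.128), as it was with no filter (0.216). LAMA3, the α chain of the same trimer, had 3.06 and 2.33 FPKM in WT and 4.22 and 3.10 FPKM in C/EBPβ enh-/-. Its values lay barely apart in the other direction, and the log2 fold change of 0.33 did not pass (limma, adjusted p = 0.51).

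The chains of the broadly used laminins with an α5 chain all lay lower in C/EBPβ enh-/- without passing. LAMA5, their α chain, had 31.0 and 38.0 FPKM in WT and 8.71 and 16.7 FPKM in C/EBPβ enh-/- (log2 fold change -1.43; limma, adjusted p = 0.0833). LAMC1, the common γ chain, had 41.3 and 57.6 FPKM in WT and 17.9 and 27.6 FPKM in C/EBPβ enh-/- (log2 fold change -1.10; limma, adjusted p = 0.110). LAMB2, a β chain of kidney and muscle basement membranes, had 72.1 and 78.7 FPKM in WT and 27.8 and 54.7 FPKM in C/EBPβ enh-/-. In these 3 genes no values overlapped, as in the 37.5% of all tested genes with C/EBPβ enh-/- lower, and C/EBPβ enh-/- replicate 1 was the lower one. LAMB1, the most common β chain, had 16.2 and 16.1 FPKM in WT and 9.37 and 11.8 FPKM in C/EBPβ enh-/-. LAMA1, an embryonic α chain, had 6.24 and 7.98 FPKM in WT and 7.50 and 6.24 FPKM in C/EBPβ enh-/-, so that its genotypes overlapped, and its log2 fold change of -0.04 turned positive with the same changes of scale as that of COL1A1. LAMA2 and LAMA4 did not exceed 0.593 FPKM. Exons of LAMA5 and LAMB1, like those of COL18A1, THBS1 and HSPG2, overlap a protein-coding gene on the opposite strand, so reads of these 5 members are uncertain where strand was not used. TIMP2 and, among the further genes below, LOXL2 and the cathepsin gene CTSD overlap a protein-coding gene on the same strand. The reads of these genes are uncertain with or without strand. The overlapping gene is CEP295NL for TIMP2 and ENTPD4 for LOXL2. FBN2, MMP24 and ADAM17, also given below, overlap a protein-coding gene on the opposite strand, like the 5 members.

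**Figure D2:**
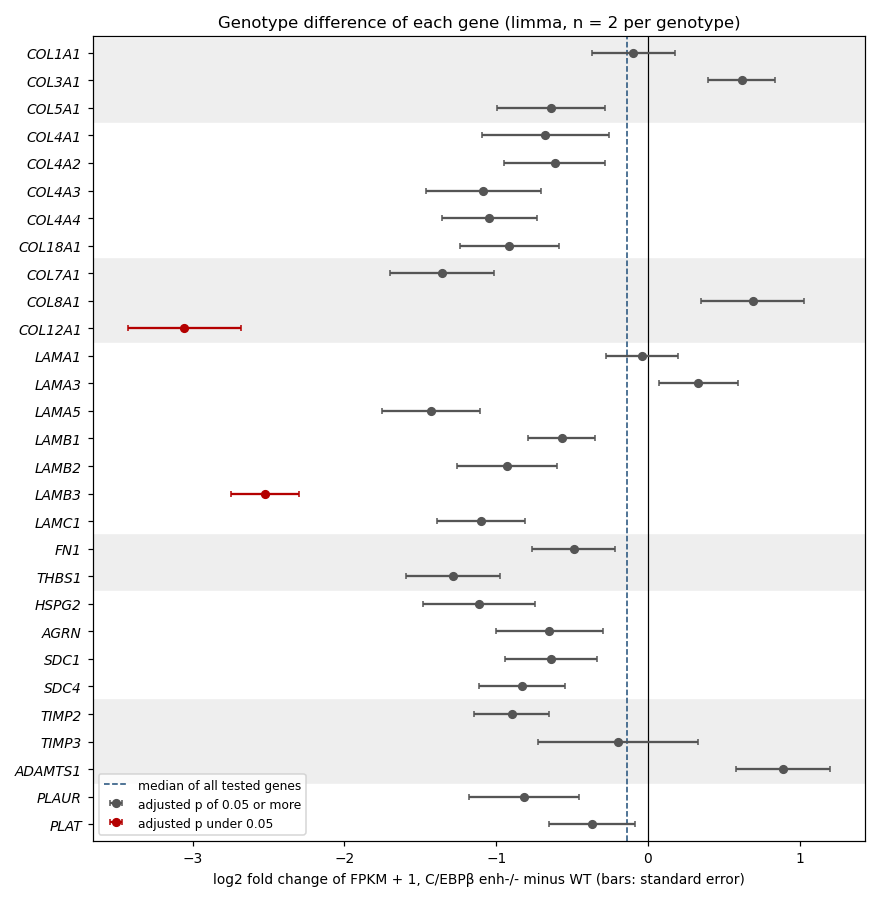
Log2 fold change of FPKM + 1 (C/EBPβ enh-/- minus WT) for the 29 tested members with the standard error from limma as a bar, red where the adjusted p is under 0.05. COL12A1 at -3.05 and LAMB3 at -2.52 stand to the left of all others, 25 of 29 members lie below 0 (COL1A1, LAMA1 and TIMP3 change sign under another scaling), and the dashed line marks the median of all tested genes at -0.14.

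Of the 7 matrix glycoproteins only THBS1 and FN1 were above the filter. THBS1 encodes thrombospondin 1, which activates latent TGF-β and restrains vessel growth. It had 36.3 and 60.9 FPKM in WT and 15.8 and 22.1 FPKM in C/EBPβ enh-/-. The genotypes did not overlap, and the log2 fold change of -1.28 (SE 0.31) did not pass (limma, adjusted p = 0.0913). FN1, fibronectin, had 2.27 and 1.74 FPKM in WT and 1.31 and 0.965 FPKM in C/EBPβ enh-/-, a low level in both genotypes. NID1, the linker between laminin and collagen IV, did not exceed 0.000519 FPKM, and NID2, its paralogue, did not exceed 0.517 FPKM. SPARC, THBS2 and TNC stayed below 0.5 FPKM.

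The 4 proteoglycans, core proteins that carry heparan sulfate or other long sugar chains, did not overlap between genotypes, with C/EBPβ enh-/- lower in each as in 37.5% of all tested genes, and 0 of 4 passed. HSPG2, the basement membrane proteoglycan perlecan, had 15.5 and 17.2 FPKM in WT and 4.43 and 10.8 FPKM in C/EBPβ enh-/-. AGRN, agrin, had 25.1 and 26.5 FPKM in WT and 10.8 and 23.6 FPKM in C/EBPβ enh-/-, where replicate 2 lay close to WT. The syndecans SDC1 and SDC4 are cell surface receptors that bind growth factors and matrix. SDC1 had 19.6 and 32.4 FPKM in WT and 18.7 and 13.5 FPKM in C/EBPβ enh-/-. SDC4 had 13.7 and 19.9 FPKM in WT and 10.8 and 7.29 FPKM in C/EBPβ enh-/-. In the secreted pair the lower C/EBPβ enh-/- library was replicate 1, and in the syndecans it was replicate 2.

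**Figure D3:**
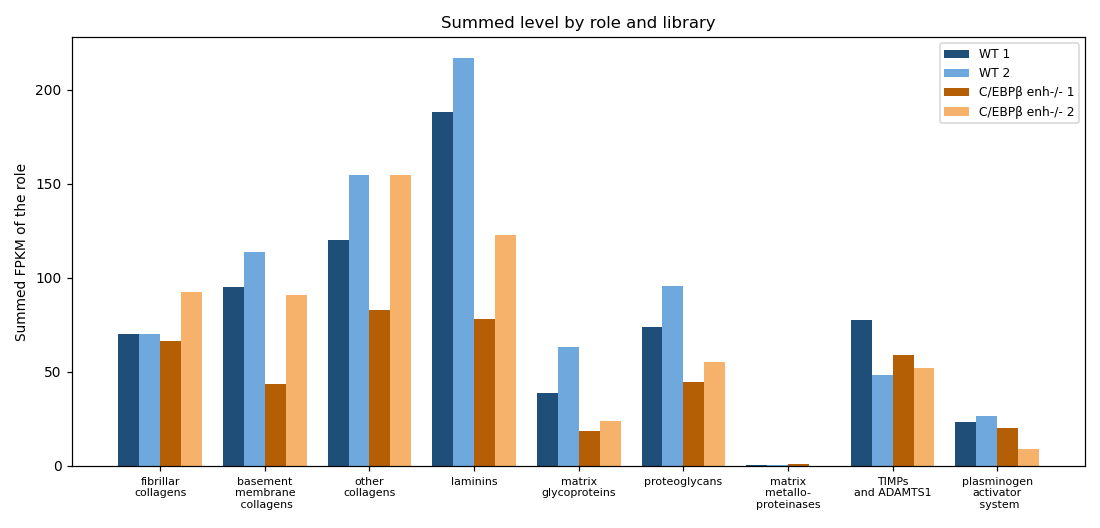
Summed FPKM of all 51 genes by role, with 1 bar per library (blue for WT, orange for C/EBPβ enh-/-). The laminin bars of C/EBPβ enh-/- (78.4 and 122.8) lie below those of WT (188.0 and 217.1), the fibrillar collagen bars of C/EBPβ enh-/- (66.3 and 92.5) lie on either side of those of WT (70.0 and 70.4), and the metalloproteinase bars are near 0.

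The 7 matrix metalloproteinases of the set were below 1 FPKM in every library. They (MMP1, MMP2, MMP3, MMP7, MMP9, MMP10 and MMP14) were not tested, and their sum was 0.243 and 0.251 FPKM in WT and 1.04 and 0.135 FPKM in C/EBPβ enh-/-. MMP2, which cleaves collagen IV, gave most of the one higher sum, with 0.794 FPKM in C/EBPβ enh-/- replicate 1. MMP14, the membrane-bound activator of MMP2, did not exceed 0.132 FPKM, and MMP7 was listed at 0 in all 4 libraries. In all, 22 members were below the filter, 18 of them under 0.5 FPKM in every library, and among the 22 both C/EBPβ enh-/- values lay above both WT values for 7 and below for 3, as they did for 17.3% and 15.5% of the 18263 genes that were above 0 in some library and below the filter. At the shallowest library 1 FPKM of a 5000 nt transcript stands for about 120.5 fragments, and no fold change is given for these 22.

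The inhibitors and the remaining proteases differed in direction. TIMP2, a secreted inhibitor that also takes part in MMP2 activation, had 22.3 and 23.6 FPKM in WT and 9.79 and 14.3 FPKM in C/EBPβ enh-/-. Its genotypes were apart, and the log2 fold change of -0.90 did not pass (limma, adjusted p = 0.117). TIMP3, the inhibitor that binds to the matrix, had 44.6 and 12.3 FPKM in WT and 19.5 and 21.4 FPKM in C/EBPβ enh-/-. The WT libraries lay on either side of the C/EBPβ enh-/- libraries, and the log2 fold change of -0.20 turned slightly positive when levels were rescaled to the protein-coding total. ADAMTS1, a secreted metalloproteinase that cuts the proteoglycans versican and aggrecan, had 10.6 and 12.5 FPKM in WT and 29.8 and 16.4 FPKM in C/EBPβ enh-/-. It had the highest log2 fold change of the members at 0.89 (SE 0.31), which did not pass (limma, adjusted p = 0.172).

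Of the plasminogen activator system, PLAUR, the urokinase receptor, had 21.8 and 24.9 FPKM in WT and 19.0 and 8.49 FPKM in C/EBPβ enh-/-. PLAT, the tissue activator, had 1.24 and 1.26 FPKM in WT and 0.896 and 0.602 FPKM in C/EBPβ enh-/-. Neither overlapped between genotypes, with C/EBPβ enh-/- lower as in 37.5% of all tested genes, and neither passed the test. PLAT passed the filter through its WT values alone. The urokinase gene PLAU itself did not exceed 0.328 FPKM.

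A further 113 genes of the matrix, listed by their roles, gave the surroundings of these members: 110 were matched and 66 were tested. Of the 66, 8 fell in C/EBPβ enh-/- and 0 rose, beside the 1.21% and 0.248% above, and at an unadjusted p under 0.05 the counts were 24 lower and 2 higher, beside 16.9% and 3.86% of all tested genes, and 19 and 7 after rescaling to the protein-coding total. The genotypes did not overlap, with C/EBPβ enh-/- lower, for 31, or 47.0%, beside 37.5% of all tested genes. They did not overlap with C/EBPβ enh-/- higher for 10, or 15.2%, beside 15.1%. Leaving out any 1 of the 4 libraries left 0 of these calls, except that EFEMP1 kept its call without WT replicate 1 (limma, adjusted p = 0.046). The median log2 fold change was -0.34, and it was -0.15 after rescaling to the protein-coding total, -0.17 after centring, -0.18 after the correction for base content and length and -0.0771 with no filter. A log2 fold change of -1 or lower with no overlap was found in 18 of the 66 and in 9 of the 29 members, beside 5.78% of all tested genes. On the other side 1 of the 66 and 0 members reached 1, beside 1.25%. Genes that passed the filter through WT alone are among those counted on the lower side, so these counts are descriptions.

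The 5 further glycoproteins that fell bind elastic fibres, basement membranes or integrins. EFEMP1, fibulin 3, had 99.4 and 131 FPKM in WT and 14.0 and 11.9 FPKM in C/EBPβ enh-/- (log2 fold change -3.05, SE 0.24; limma, adjusted p = 0.00332). Its replicates were close in both genotypes, as were those of FBLN5, fibulin 5, an elastic fibre protein with 7.19 and 8.43 FPKM in WT and 0.576 and 0.482 FPKM in C/EBPβ enh-/-. FBLN5 passed the filter through its WT values alone, so its call is a description. NPNT, nephronectin, a ligand of integrin α8β1 in basement membranes, had 41.7 and 50.6 FPKM in WT and 6.83 and 7.45 FPKM in C/EBPβ enh-/-. TINAGL1, a basement membrane protein, had 36.2 and 58.1 FPKM in WT and 8.69 and 4.45 FPKM in C/EBPβ enh-/-. PXDN, the peroxidase that makes the sulfilimine crosslinks of collagen IV, had 46.9 and 44.8 FPKM in WT and 11.5 and 18.1 FPKM in C/EBPβ enh-/- (log2 fold change -1.60; limma, adjusted p = 0.0431). PXDN lost its call without the trend, after either rescaling, after centring, after the correction for base content and length and with a replicate block (limma, adjusted p = 0.0531 to 0.116 over these).

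The other 3 that fell act on collagen after its synthesis. PCOLCE and PCOLCE2 enhance the removal of the procollagen end peptide. PCOLCE had 18.1 and 18.6 FPKM in WT and 5.42 and 6.16 FPKM in C/EBPβ enh-/- (log2 fold change -1.51; limma, adjusted p = 0.0279). PCOLCE2 had 7.53 and 10.9 FPKM in WT and 1.81 and 2.25 FPKM in C/EBPβ enh-/-. LOXL2, a lysyl oxidase that crosslinks collagen, had 14.9 and 11.4 FPKM in WT and 3.94 and 3.13 FPKM in C/EBPβ enh-/-. In each of these 3 the lowest WT value was above the highest C/EBPβ enh-/- value, and 3 of 14 tested genes of collagen synthesis and crosslinking were called, beside 1.21% of all tested genes called lower. Rescaling to the protein-coding total ended all 3 of these calls (limma, adjusted p = 0.0682 for PCOLCE, 0.0709 for PCOLCE2 and 0.0717 for LOXL2), as did centring (0.0549, 0.0614 and 0.0537). PCOLCE and PCOLCE2 also lost theirs after rescaling to the same total (limma, adjusted p = 0.0618 and 0.0621), PCOLCE2 with a minimum mean of 5 FPKM (0.0545) and LOXL2 after the correction for base content and length (0.0512). PLOD2, which hydroxylates the lysines used in crosslinks, had 39.7 and 44.5 FPKM in WT and 19.1 and 16.9 FPKM in C/EBPβ enh-/- and just missed the threshold (limma, adjusted p = 0.0566).

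Among further collagens, laminins and proteoglycans 0 of 7, 0 of 1 and 0 of 9 tested genes were called, and those at -1 or lower with no overlap were COL4A5, COL16A1, LAMC3, BGN and GPC1. COL4A5, the third chain of the COL4A3 and COL4A4 trimer, had 15.1 and 17.8 FPKM in WT and 2.60 and 11.1 FPKM in C/EBPβ enh-/-. LAMC3, a γ chain, had 3.10 and 3.42 FPKM in WT and 0.462 and 1.38 FPKM in C/EBPβ enh-/-. FBN2, fibrillin 2 of elastic microfibrils, had 3.39 and 12.3 FPKM in WT and 0.757 and 0.298 FPKM in C/EBPβ enh-/-, without passing (limma, adjusted p = 0.0766). In these 3 genes 1 library of a genotype stood well apart from its replicate or the level was low. COL16A1, LAMC3, BGN and FBN2 had C/EBPβ enh-/- means below 1 FPKM and passed the filter through WT alone. Their results are descriptions.

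The further proteases gave no call in either direction. Of 11 further metalloproteinases tested, 4 had both C/EBPβ enh-/- values below WT (36.4%, beside 37.5% of all tested genes) and 3 had both above (27.3%, beside 15.1%), and the median log2 fold change was 0.04. MMP15, which is anchored in the membrane, had 3.61 and 6.23 FPKM in WT and 9.83 and 6.29 FPKM in C/EBPβ enh-/-, and MMP17 lay between 2.18 and 3.49 FPKM in the 4 libraries. MMP24, another membrane-bound metalloproteinase, had 4.38 and 3.64 FPKM in WT and 0.701 and 0.942 FPKM in C/EBPβ enh-/- (log2 fold change -1.46; limma, adjusted p = 0.0535). MMP24 passed the filter through its WT values alone, so its test result is a description. ADAM17, the sheddase of TNF, had 12.0 and 12.5 FPKM in WT and 6.59 and 4.15 FPKM in C/EBPβ enh-/-. ADAMTS6 had 3.16 and 1.07 FPKM in WT and 5.09 and 6.20 FPKM in C/EBPβ enh-/-, the one gene of the 66 at 1 or higher with no overlap. The 3 tested cathepsins, lysosomal proteases that can also cut matrix, all had both C/EBPβ enh-/- values above both WT values, as had 15.1% of all tested genes, with a median log2 fold change of 0.64, and were not called.

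**Figure D4:**
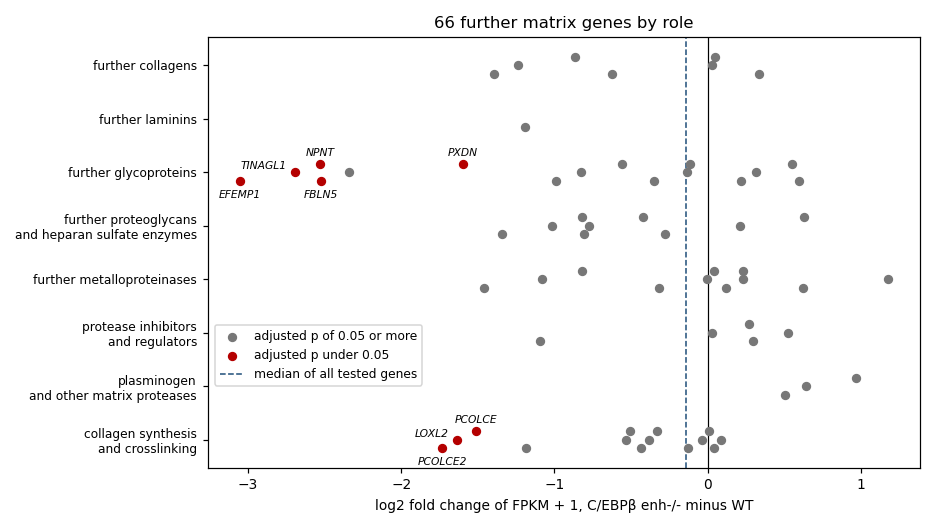
Log2 fold change of FPKM + 1 (C/EBPβ enh-/- minus WT) of the 66 further matrix genes tested, with 1 point per gene arranged by role, red and named where the limma adjusted p is under 0.05. The 8 red points, from EFEMP1 at -3.05 to PCOLCE at -1.51, are glycoproteins and collagen-modifying genes, and the cathepsins lie to the right of 0.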

How the data were processed

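Total RNA was sequenced in 4 libraries labelled HepG2, 2 WT and 2 C/EBPβ enh-/-. The authors deposited FPKM per gene and library, and the submitters' processing notes name TopHat2 2.0.13, Cufflinks and edgeR on hg19 without their roles; strand use is not given in the sources used here, and the extraction text in the labels describes chromatin. No counts were used, so depth is approximate. Gene symbols came from GENCODE lifted to GRCh37, which gave 55535 of 57768 entries a symbol, 51 of 51 members and 110 of 113 further genes. log2(FPKM + 1) was fitted with limma 3.58.1 (trend, no block) in R 4.3.3 for 12491 genes whose mean reached 1 FPKM, two-sided, with Benjamini-Hochberg adjustment over all of them and a threshold of 0.05. An exact permutation test of 2 against 2 cannot go below p = 0.333. The code was first checked on simulated data.

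Any member above the filter could be named, and further genes where called or where genotypes did not overlap and the log2 fold change was 1 or more in either direction. Members below the filter were given by their highest value, and the cathepsins, MMP15 and MMP17 were named after their values were seen. The members and lists were chosen with earlier results of these data known. Alternatives covered the pseudocount, filter, scaling, trend, gene type, replicate block, each library left out and, added after seeing the data, a correction for GC content and length (loess span 0.3). Motif letters were searched in GRCh37.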

Additional observations from a re-analysis of the deposited data

How the results depend on the processing

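COL12A1 and LAMB3, the 2 members called lower, remained called with limma without the trend, with a pseudocount of 0.1, with a minimum mean of 5 FPKM, with either rescaling, with centring, with protein-coding genes only (where LAMA5 made a count of 3), with the replicate block and with the correction for GC content and length; 0 were called without a filter on low values and 0 with any 1 library left out, where the lone library is assumed to vary like the others and 1 residual degree of freedom remains. Over all genes 151 were called lower: the count was 61 after rescaling to the same total, 57 after rescaling to the same protein-coding total, 68 after centring, 457 with protein-coding genes only, 0 with no filter, and 9 to 22 with 1 library left out. The 31 called higher became 20 with a minimum mean of 5, 60 with protein-coding genes only, 0 with no filter, and 3 to 20 with 1 library left out. The 8 further matrix genes called lower became 5, 4 and 4 after rescaling to the same total, rescaling to the protein-coding total and centring, 12 with protein-coding genes only, 0 with no filter, and 0 to 1 with 1 library left out. The members' median of -0.68 was -0.46 after rescaling to the protein-coding total, -0.47 after the correction for GC content and length, -0.095 with no filter, and between -1.06 and -0.49 with 1 library left out. The further genes' median of -0.34 was -0.15 after rescaling to the protein-coding total, -0.17 after centring and -0.0771 with no filter. With no filter 11 of 50 members had both C/EBPβ enh-/- values above both WT values and 22 had both below, beside 16.4% and 24.4% of 30754 genes. The rescaling to the protein-coding total moved the median of all genes from -0.14 to 0.06, and centring moved it to 0.03, the correction for GC content and length to -0.012. COL1A1 reached 0.11 and LAMA1 0.16 after that rescaling, 0.0766 and 0.13 after centring, and 0.12 and 0.16 after the correction for GC content and length, and TIMP3 reached 0.0197 after that rescaling. With 1 library left out COL1A1 ranged from -0.36 to 0.16, LAMA1 from -0.19 to 0.12 and TIMP3 from -1.09 to 0.69. Apart from the smaller number of samples when a library is left out, the cause of these changes was not tested.

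The replicate numbers share only a number: the deviations of same-numbered libraries correlated with r = 0.0094 across genes, which are not independent replicates. With the replicate block 93 genes were called lower, and with the replicate block and the correction for GC content and length 47 genes, 3 further matrix genes and a members' median of -0.47, with COL1A1 at 0.12 and LAMA1 at 0.16. The adjusted p in limma with the replicate block was 0.0075 for COL12A1 and 0.0116 for LAMB3.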
